A study of Rattus norvegicus with 24 samples.

Results

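The genes of the stress responses to misfolded proteins were followed in liver: 40 listed genes of the endoplasmic reticulum (ER) stress response, the integrated stress response and the heat shock response. They were found by gene symbol in a table of 23188 transcripts, with the probe set of the highest mean signal taken where a gene had several, and 39 of the 40 were found; Hspa1b, an inducible cytosolic HSP70, was not matched by symbol and is not analysed here. The 39 genes comprise 17 ER chaperones and degradation factors, 4 sensors and regulators of the unfolded protein response, 10 genes of the ATF4 axis and 8 heat shock genes. RNA from the liver of male Zucker rats was hybridised to Clariom S arrays, 1 array per rat and 6 rats in each of 4 groups. The labels give an age of 25 weeks, which by the paper was the age when the feeding began. Lean rats (fa/+, with 1 mutant fa copy of the gene for the leptin receptor) and obese rats (fa/fa, with no other copy) received a basal diet (groups LC and OC) or the basal diet with 0.5 g of ecdysterone, a steroid of plants and insects, per kg (groups LE and OE) for 4 weeks. The fa allele is carried in every tissue, so the liver of an obese rat differs from that of a lean rat in its own leptin receptor and in the hormones and nutrients that reach it, and the lean rats also carry 1 copy. The animal experiment had 8 rats per group, of which 6 were chosen at random for the arrays, and the rats lived 2 to a cage, which the labels do not tie to the arrays. The p-values therefore treat the rats as independent and measure the spread between single rats. Likeness between rats of 1 cage could not be modelled, and where present it would make the p-values too small.

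When unfolded proteins gather in the ER, sensors in its membrane (IRE1, PERK and ATF6) start the unfolded protein response. IRE1 splices the mRNA of the transcription factor XBP1, PERK phosphorylates the initiation factor eIF2 alpha and thereby raises the translation of ATF4, and the cleaved ATF6 enters the nucleus. Together they raise the transcription of chaperones, of factors that degrade misfolded proteins and of enzymes of amino acid supply, whereas the heat shock response, driven by heat shock factors, raises the chaperones of the cytosol and the mitochondria. The hepatocyte secretes most plasma proteins and expresses ER chaperones at a high level.

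Signals are on a log2 scale, on which a difference of 1 is a 2-fold change. All differences below come from 1 limma model of the 4 group means and are given as the first group minus the second, with a 95% interval in parentheses. The p-values were adjusted after Benjamini and Hochberg for all 23188 transcripts at once, and a gene is called where the adjusted p is under 0.05. The median signal per array lay between 6.51 and 6.61. As a measure of background, 1526 transcripts of smell, taste and vomeronasal receptors had a median mean signal of 4.83 and a 90th percentile of 6.00, and 35 of the 39 genes lay above that percentile; the exceptions were Ppp1r15a (5.05), Hspb1 (5.23), Chac1 (5.56) and Phgdh (5.58). Hepatocyte markers stood at a mean log2 signal of 18.39 to 18.66 in every rat. Red blood cell markers differed between the genotypes, with 6 of 15 higher in OC vs. LC and 2 of 15 in OE vs. LE, and their mean signal per rat was 6.90 to 7.37 in LC against 7.58 to 7.91 in OC, and 7.01 to 7.49 in LE against 7.36 to 7.84 in OE. Stellate cell and fibroblast markers also differed, with 5 of 13 and 4 of 13 higher, and their mean signal per rat was 8.05 to 8.26 in LC against 8.36 to 8.82 in OC, and 7.83 to 8.24 in LE against 8.39 to 9.08 in OE. Markers of B and plasma cells, which are rich in ER chaperones and XBP1, had 0 of 8 called in both comparisons (1 in OE vs. LE and 0 in OC vs. LC had an unadjusted p under 0.05). Of the 8, 7 lay below 0 in OC vs. LC (median −0.075) and 4 in OE vs. LE (median 0.012). Their mean signals were 6.02 to 6.31 in LC and 5.91 to 6.26 in OC, and 5.88 to 6.43 in LE and 6.15 to 6.48 in OE. The part of these cells in the results below was not tested, and in whole liver, fewer cells of a type and less RNA per cell cannot be told apart.

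Over both diets, the obese liver held less Xbp1 and Chac1 mRNA than the lean liver, with Chac1 near background. It held more Psat1, Asns, Atf5 and Edem1 mRNA, and most ER chaperones (14 of 17, against 11901 of 23188 transcripts) had lower mean signals. Not all of these genes were called on each diet. On the control diet (OC vs. LC), Edem1 and Psat1 rose and Xbp1 and Chac1 fell, that is 2 of 39 genes higher and 2 lower, where 1.44% of all transcripts were higher and 1.15% lower. On the ecdysterone diet (OE vs. LE), measured in other rats, Atf5, Asns and Psat1 rose and Xbp1 and Dnajc3 fell, that is 3 of 39 higher and 2 lower, where 1.07% and 1.04% of all transcripts were. Without LE rat 11, 1 gene passed in OE vs. LE (Psat1), and over all 12 fits without 1 rat 1 to 6 genes passed, against 3 to 5 in OC vs. LC. Xbp1 and Psat1 were the 2 genes called in both comparisons. Over both diets, with 12 obese and 12 lean rats, 4 of 39 genes were higher and 7 lower, against 3.56% and 2.95% of all transcripts. The median difference of the 39 genes was −0.23 in OC vs. LC and −0.19 in OE vs. LE, and that of all transcripts was −0.0038 and −0.0044. The median size of a difference, regardless of sign, was 0.31 and 0.28 for the 39 genes and 0.15 in both for all transcripts.

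**Figure D1:**
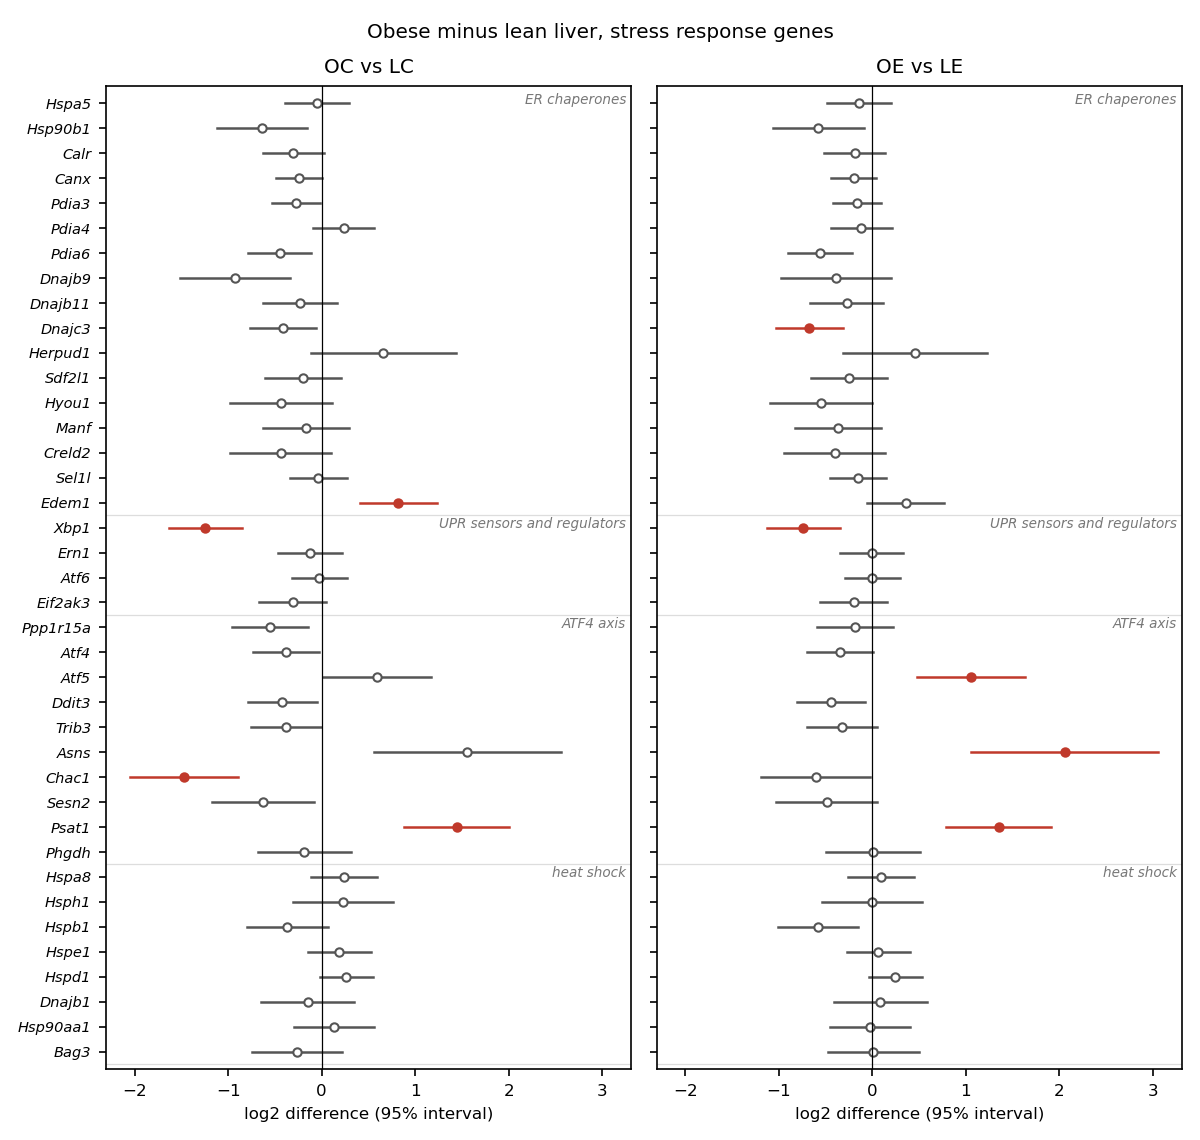
Difference in log2 signal between obese and lean rats with its 95% interval (horizontal axis) for the 39 genes, on the control diet (left, OC vs LC) and on the ecdysterone diet (right, OE vs LE), with filled red points where the adjusted p was under 0.05. Of the ER chaperones, 14 of 17 lie below 0 on the left and 15 of 17 on the right, Xbp1 is called lower in both and Psat1 higher in both. Of all 23188 transcripts, not drawn, 11771 and 11777 lie below 0.

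Xbp1 encodes the transcription factor that IRE1 activates by splicing. Its signal had a lowest, median and highest value of 14.63, 15.03 and 15.40 in LC, 14.11, 14.66 and 15.21 in LE, 13.33, 13.71 and 14.16 in OC and 13.34, 13.90 and 14.40 in OE. On the control diet every obese rat lay below every lean rat, a pattern found for 2 of the 39 genes (Xbp1 and Chac1) and for 0.97% of all transcripts. On the ecdysterone diet the groups overlapped. The difference was −1.24 (−1.63 to −0.85), or 2.37-fold lower, in OC vs. LC (adjusted p = 1.15e-04 from limma) and −0.74 (−1.13 to −0.35), or 1.67-fold lower, in OE vs. LE (adjusted p = 0.0342). The fall in OC vs. LC passed under every alternative run (adjusted p 2.87e-05 to 0.00918). The fall in OE vs. LE passed in 5 of the 12 fits that left out 1 array. The table holds 1 value for the gene, so spliced and unspliced Xbp1 are not separated. Of the sensors, Ern1 (IRE1 alpha) differed by −0.12 (−0.46 to 0.22) in OC vs. LC, Atf6 by −0.02 (−0.32 to 0.27) and Eif2ak3 (PERK) by −0.31 (−0.67 to 0.05), and 0 of these 3 passed in either comparison.

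**Figure D2:**
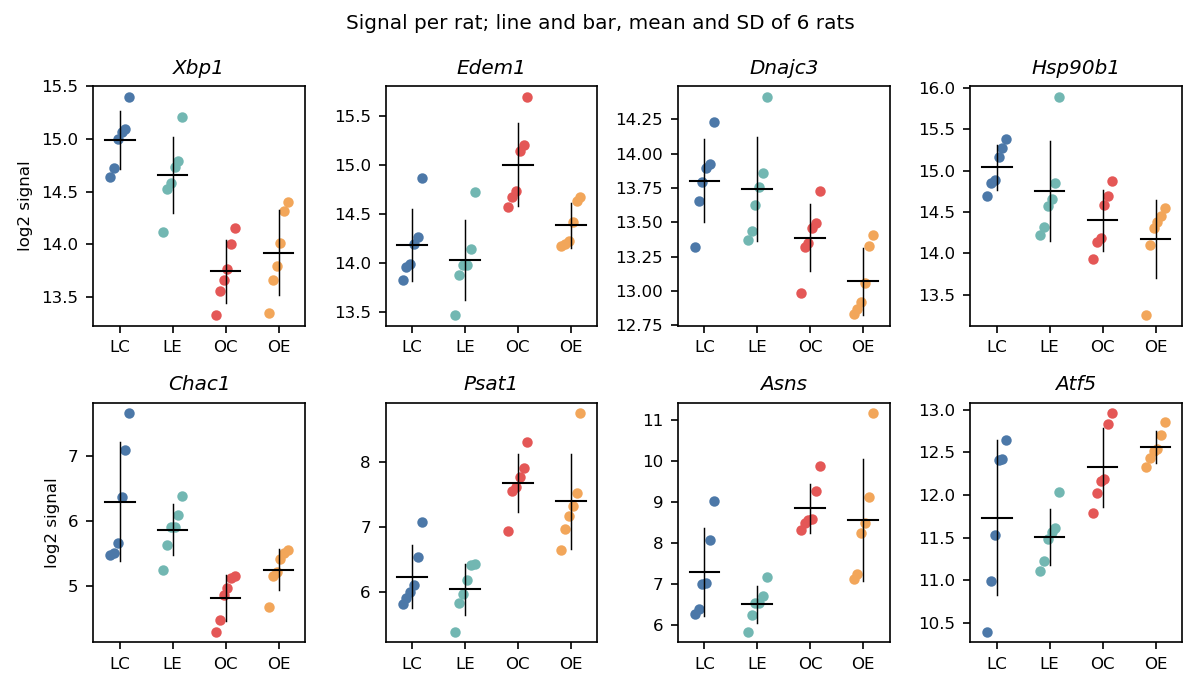
Log2 signal (vertical axis, a different range in each panel) of 8 genes in every rat of the 4 groups, with the mean (line) and SD (bar) of 6 rats. The OC rats lie between 13.33 and 14.16 for Xbp1, below all LC rats, and between 4.31 and 5.16 for Chac1, also below all LC rats, while the OE rats lie between 12.33 and 12.85 for Atf5, above all LE rats.

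Chaperones of the ER lumen bind unfolded proteins, isomerases form their disulfide bonds, and degradation factors move failed proteins to the cytosol. Among the 17 genes of this kind, 14 had a lower mean in OC than in LC and 15 a lower mean in OE than in LE, with median differences of −0.24 and −0.25. Of all 23188 transcripts, 11771 and 11777 had a lower mean in these comparisons. With ecdysterone, where no gene was called, 14 of the 17 were lower in LE than in LC and 13 in OE than in OC. Many of these genes varied together from rat to rat, so such counts are not 17 separate results. Few of the differences between obese and lean rats passed the test. Edem1 was called in OC vs. LC and Dnajc3 in OE vs. LE. Over both diets Hsp90b1, Pdia6, Dnajb9 and Dnajc3 fell and Edem1 rose. Averaged over the 17 genes, the lowest, median and highest rat stood at 13.16, 13.60 and 13.66 in LC, 13.12, 13.36 and 13.99 in LE, 13.22, 13.31 and 13.59 in OC and 12.97, 13.17 and 13.44 in OE. The groups overlap, and the range of these means within LE was wider than the gap between any pair of group medians.

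Dnajc3 encodes P58IPK, a J-domain co-chaperone of BiP that also inhibits PERK. Its signal had a lowest, median and highest value of 13.32, 13.85 and 14.23 in LC, 13.37, 13.69 and 14.41 in LE, 12.99, 13.40 and 13.72 in OC and 12.83, 12.99 and 13.41 in OE. The lean groups lay higher, and the ranges of LE and OE touched at 1 pair of rats near 13.4. The difference was −0.67 (−1.03 to −0.32), or 1.59-fold lower, in OE vs. LE (adjusted p = 0.034) and −0.54 (−0.79 to −0.29) over both diets (adjusted p = 0.00449). In OC vs. LC it was −0.41 (−0.77 to −0.06) and missed the threshold (adjusted p = 0.275). The call in OE vs. LE held in 5 of 12 fits without 1 array, whereas the call over both diets held in all 24. The disulfide isomerase Pdia6 fell by 0.50 over both diets (−0.74 to −0.26, adjusted p = 0.00597). Hsp90b1, which encodes the ER chaperone GRP94, fell by 0.61 (−0.95 to −0.27, adjusted p = 0.0229), and Dnajb9, the co-chaperone ERdj4, by 0.66 (−1.07 to −0.24, adjusted p = 0.0489). The last of these calls held in 8 of 24 fits without 1 array.

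Hspa5, which encodes BiP, the HSP70 of the ER lumen and the usual readout of ER stress, did not pass in either comparison. Its lowest, median and highest signals were 16.75, 17.08 and 17.25 in LC, 16.65, 16.83 and 17.57 in LE, 16.70, 16.87 and 17.39 in OC and 16.48, 16.73 and 17.17 in OE, so all groups overlapped. The difference was −0.05 (−0.39 to 0.29) in OC vs. LC and −0.15 (−0.49 to 0.20) in OE vs. LE. Given in the same order, the lectin chaperones Calr (−0.30 and −0.19) and Canx (−0.24 and −0.20) and the isomerase Pdia3 (−0.27 and −0.16) had lower means in both comparisons and did not pass, and the isomerase Pdia4 differed in sign between them (0.23 and −0.12). Of the partners of BiP, Dnajb11 (−0.23 and −0.28), Sdf2l1 (−0.20 and −0.25) and Hyou1 (−0.43 and −0.55) did not pass, and neither did the secreted ER factors Manf (−0.17 and −0.37) and Creld2 (−0.44 and −0.40). Sel1l, the adaptor of the ligase that marks failed ER proteins for degradation, differed by −0.04 (−0.34 to 0.27) and −0.15 (−0.46 to 0.15).

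Edem1, a mannosidase-like factor that hands misfolded glycoproteins to degradation, rose, against the direction of most genes of this kind. The lowest, median and highest signals of Edem1 were 13.82, 14.09 and 14.87 in LC, 13.47, 13.98 and 14.72 in LE, 14.57, 14.94 and 15.69 in OC and 14.17, 14.32 and 14.67 in OE. OC was the highest group, and 1 LC rat (14.87) and 1 LE rat (14.72) lay within its range. The gene rose by 0.82 (0.41 to 1.23), or 1.76-fold, in OC vs. LC (adjusted p = 0.02) and by 0.59 over both diets (adjusted p = 0.00875), and differed by 0.36 (−0.06 to 0.77) in OE vs. LE (adjusted p = 0.495). Without LC rat 3 or OC rat 16 the adjusted p in OC vs. LC was 0.0614 or 0.0709.

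The promoter windows of these genes were read to show the elements that the transcription factors of this response are known to bind. RefSeq promoters of the GRCr8 assembly, from 250 bases before to 50 after the start of a gene, were matched for 33 of the 39 genes. The ER stress response element (ERSE, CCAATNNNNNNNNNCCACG on either strand) was present in 6 of 14 windows of ER chaperones (42.9%) and in that of Xbp1, against 22 of 33469 windows of all genes (0.0657%). The related ERSE-II (ATTGGNCCACG, either strand) was present in 3 of the 14 (Dnajb11, Herpud1 and Hyou1, the last with 2 matches), against 0.0508% of all windows. The UPRE (TGACGTGG, either strand) was present in Hyou1, where it overlaps an ERSE-II match, and in Bag3, against 0.595%. A match is a description of these letters and not proof of a bound site. The genes were listed as members of this response, so their excess of its elements is not an independent result. The windows of all genes include theirs. The windows of Xbp1, Dnajc3 and Hsp90b1 are shown because these genes fell in the obese liver and carry ERSE matches, and that of Herpud1 because it carries the ERSE-II and had the largest within-group spread of the ER chaperones; matches are in capitals, and all sequences run 5′ to 3′ on the strand of the gene.
Xbp1 promoter (chr14:84604373-84604672, plus strand): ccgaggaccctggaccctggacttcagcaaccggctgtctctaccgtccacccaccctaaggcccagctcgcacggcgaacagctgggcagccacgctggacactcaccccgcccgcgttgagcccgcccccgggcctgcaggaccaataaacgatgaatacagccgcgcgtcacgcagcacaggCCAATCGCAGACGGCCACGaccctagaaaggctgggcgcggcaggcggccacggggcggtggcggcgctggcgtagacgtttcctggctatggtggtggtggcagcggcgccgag
Dnajc3 promoter (chr15:102432417-102432716, plus strand): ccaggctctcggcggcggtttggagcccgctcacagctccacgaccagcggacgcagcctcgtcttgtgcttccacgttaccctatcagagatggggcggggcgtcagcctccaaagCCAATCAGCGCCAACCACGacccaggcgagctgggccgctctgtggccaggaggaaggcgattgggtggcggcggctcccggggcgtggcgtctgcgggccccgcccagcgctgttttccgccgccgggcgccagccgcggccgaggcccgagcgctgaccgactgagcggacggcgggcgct
Hsp90b1 promoter (chr7:23012244-23012543, minus strand): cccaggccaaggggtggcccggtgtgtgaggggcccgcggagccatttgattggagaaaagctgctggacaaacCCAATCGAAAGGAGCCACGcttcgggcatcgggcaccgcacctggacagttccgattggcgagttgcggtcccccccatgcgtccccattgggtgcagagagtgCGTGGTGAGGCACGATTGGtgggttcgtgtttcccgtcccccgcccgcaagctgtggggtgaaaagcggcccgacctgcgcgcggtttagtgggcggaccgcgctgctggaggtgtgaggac
Herpud1 promoter (chr19:10614658-10614957, minus strand): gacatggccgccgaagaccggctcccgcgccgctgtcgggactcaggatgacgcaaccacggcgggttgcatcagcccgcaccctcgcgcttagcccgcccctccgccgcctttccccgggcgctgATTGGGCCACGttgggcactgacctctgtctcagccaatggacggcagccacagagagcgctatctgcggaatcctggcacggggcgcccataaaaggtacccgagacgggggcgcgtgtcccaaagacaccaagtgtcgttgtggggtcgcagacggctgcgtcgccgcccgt
The ERSE match lies at −65 to −47, counted from the start of the gene, in Xbp1 and at −133 to −115 in Dnajc3, and Hsp90b1 has 2 matches, at −176 to −158 and, on the opposite strand, at −72 to −54. The matched bases of the other chaperones with an ERSE are shown to compare the spacer between the conserved ends, with Calr and Creld2 matching on the opposite strand.
Hspa5 ERSE (chr3:38452973-38452991): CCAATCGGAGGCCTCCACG
Calr ERSE (chr19:40213135-40213153): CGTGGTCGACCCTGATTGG
Canx ERSE (chr10:35158069-35158087): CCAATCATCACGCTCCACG
Creld2 ERSE (chr7:121789239-121789257): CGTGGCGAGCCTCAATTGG
The 7 genes with an ERSE all had lower means in OC vs. LC and in OE vs. LE. So did Dnajb9, Dnajb11, Sdf2l1, Hyou1 and Sel1l, whose windows hold no ERSE, whereas Pdia4, Herpud1 and Edem1, also without one, did not. Over both diets Xbp1, Dnajc3 and Hsp90b1 fell, and the differences that did not pass were −0.10 (−0.34 to 0.14) for Hspa5, −0.24 (−0.48 to −0.01) for Calr, −0.22 (−0.39 to −0.05) for Canx and −0.42 (−0.80 to −0.04) for Creld2. Differences between these genes were not tested. Neither Edem1, which rose, nor Dnajb9, which fell over both diets, had a match to ERSE, ERSE-II or UPRE in its window. A link between the elements and the differences was not tested.

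ATF4 drives genes that supply amino acids and glutathione and that feed back on the integrated stress response, and these genes divided. Of the 10 genes of the axis, 1 rose and 1 fell in OC vs. LC and 3 rose and 0 fell in OE vs. LE, and over both diets 3 rose (Atf5, Asns and Psat1) and 2 fell (Ddit3 and Chac1). Of all transcripts, 1.44% rose and 1.15% fell in OC vs. LC, 1.07% and 1.04% in OE vs. LE and 3.56% and 2.95% over both diets. Psat1 catalyses the middle step of serine synthesis. The Psat1 signal had a lowest, median and highest value of 5.81, 6.05 and 7.07 in LC, 5.39, 6.08 and 6.42 in LE, 6.94, 7.69 and 8.30 in OC and 6.64, 7.24 and 8.74 in OE. Every OE rat lay above every LE rat, which was so for 2 of the 39 genes (Psat1 and Atf5) and for 0.811% of all transcripts; in the lower direction it was 0 of 39 and 0.953%. Between OC and LC, 1 lean rat reached the lowest obese rat, and no gene of the 39 had all OC rats above all LC rats, against 1.05% of transcripts. In each lean group 3 of 6 rats lay under the 90th percentile of the receptor transcripts used as background (6.00), and in the obese groups 0 of 6, so no fold is given. On the log2 scale Psat1 rose by 1.44 (0.88 to 2.00) in OC vs. LC (adjusted p = 0.00175) and by 1.35 (0.79 to 1.91) in OE vs. LE (adjusted p = 0.00454), and both calls held when any 1 array was left out.

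Asns encodes asparagine synthetase. The Asns signal had a lowest, median and highest value of 6.27, 7.00 and 9.03 in LC, 5.84, 6.54 and 7.17 in LE, 8.32, 8.57 and 9.88 in OC and 7.11, 8.37 and 11.17 in OE. The obese groups were the higher ones and overlapped the lean ones, and OE spread most, with its top rat at 11.17. LE rat 11 (5.84) lay under the 90th percentile of the receptor transcripts used as background (6.00), so the fold in OE vs. LE rests in part on a signal near background. The gene rose by 2.06 (1.06 to 3.06), or 4.16-fold, in OE vs. LE (adjusted p = 0.0195, and 0.0554 without LE rat 11) and by 1.81 over both diets (1.10 to 2.51, adjusted p = 8.11e-04), and in OC vs. LC the difference of 1.56 (0.56 to 2.56) had an adjusted p = 0.0933. The within-group SD of Asns, 0.99, was larger than that of 99.6% of all transcripts.

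Atf5 encodes a transcription factor related to ATF4. The Atf5 signal had a lowest, median and highest value of 10.40, 11.97 and 12.65 in LC, 11.10, 11.53 and 12.04 in LE, 11.79, 12.17 and 12.96 in OC and 12.33, 12.53 and 12.85 in OE. OE and LE did not overlap, whereas OC lay within and above the wide range of LC. Atf5 rose by 1.06 (0.48 to 1.63), or 2.08-fold, in OE vs. LE (adjusted p = 0.0421), a call that held in 1 of 12 fits without 1 array, and by 0.82 over both diets (0.42 to 1.23, adjusted p = 0.0083), a call that held in all 24.

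Chac1 encodes an enzyme that degrades glutathione and is known as a sensitive target of ATF4 and CHOP. The Chac1 signal had a lowest, median and highest value of 5.48, 6.01 and 7.65 in LC, 5.26, 5.91 and 6.39 in LE, 4.31, 4.92 and 5.16 in OC and 4.69, 5.32 and 5.55 in OE. All OC rats lay below all LC rats, and all OC and OE rats lay under the 90th percentile of the receptor transcripts used as background (6.00), and OE overlapped LE. Of the lean rats, 3 of 6 in LC and 4 of 6 in LE also lay under it, so no fold is given. On the log2 scale Chac1 fell by 1.47 (−2.05 to −0.89) in OC vs. LC (adjusted p = 0.00201) and by 1.04 over both diets (−1.45 to −0.63, adjusted p = 8.73e-04), and the difference of −0.61 (−1.19 to −0.03) in OE vs. LE had an adjusted p = 0.371. Ddit3, which encodes the transcription factor CHOP, fell by 0.43 over both diets (−0.69 to −0.17, adjusted p = 0.0354), a call that held in 14 of 24 fits without 1 array.

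The remaining genes of the axis did not pass in any comparison. Atf4 itself differed by −0.38 (−0.73 to −0.03) and −0.34 (−0.70 to 0.01), Sesn2, a sensor of leucine and stress, by −0.63 (−1.17 to −0.08) and −0.49 (−1.03 to 0.05), and the pseudokinase Trib3 by −0.38 (−0.76 to −0.01) and −0.33 (−0.70 to 0.05) in OC vs. LC and OE vs. LE. Ppp1r15a, which directs a phosphatase to eIF2 alpha, differed by −0.56 (−0.96 to −0.15) and −0.19 (−0.59 to 0.22). Phgdh, the enzyme before Psat1 in serine synthesis, differed by −0.18 (−0.68 to 0.32) and 0.00 (−0.50 to 0.50), at a signal close to background. The letters TGATGNAAT, 1 form of the composite element bound by ATF4 with C/EBP factors, were present in 0 of the 33 promoter windows (either strand), against 1.09% of all windows. At that share, 0 of 33 windows does not show a lack of the element. The last base was fixed as T, and forms with another last base were not counted. The windows of Chac1, Trib3 and Herpud1, for example, hold such a form on the opposite strand.

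Heat shock genes encode the folding machinery of the cytosol and mitochondria, and none of the 8 was called by limma in any comparison. An unadjusted p under 0.05 was reached by 0 of 8 in OC vs. LC, by 1 of 8 in OE vs. LE (Hspb1) and by 2 of 8 over both diets (Hspd1 and Hspb1), against 12.8%, 12.4% and 17.8% of all transcripts. In OC vs. LC, 5 of 8 lay above 0, with a median of 0.16, and all 8 intervals lay within −1 and 1. Hspa8, the constitutive HSP70, had lowest, median and highest signals of 17.04, 17.18 and 17.77 in LC, 16.95, 17.17 and 17.51 in LE, 17.11, 17.50 and 17.87 in OC and 16.67, 17.32 and 17.74 in OE, and differed by 0.24 (−0.11 to 0.59) in OC vs. LC and 0.09 (−0.26 to 0.44) in OE vs. LE. The mitochondrial partners Hspd1 (HSP60) and Hspe1 (HSP10) differed by 0.26 (−0.02 to 0.54) and 0.19 (−0.15 to 0.53) in OC vs. LC, and Hspd1 by 0.25 (0.05 to 0.45, adjusted p = 0.133) over both diets. Hsph1 (HSP110) differed by 0.23, the co-chaperones Dnajb1 (HSP40) and Bag3 by −0.15 and −0.26, and the inducible HSP90 gene Hsp90aa1 by 0.13. Hspb1, the small heat shock protein HSP27, came nearest to a call, with −0.47 over both diets (−0.78 to −0.17, adjusted p = 0.0536), at a signal close to background. The heat shock element (GAANNTTCNNGAA, either strand) was present in the windows of 4 of 7 genes, Hspa8, Hsph1, Hspe1 and Hspd1, against 0.798% of all windows. These genes too were listed as members of the response, so this excess is not an independent result. Hspe1 and Hspd1 lie head to head on chromosome 9, and their matches are the same bases, at chr9:64084262-64084274 and chr9:64084267-64084279 of GRCr8, read on opposite strands. Read on the strand of each gene, the overlapping pair of matches is shown for both genes and the 2 matches for Hspa8.
Hspe1 HSE (chr9:64084262-64084274): TTCTAGAACCTTC
Hspe1 HSE (chr9:64084267-64084279): GAACCTTCCGGAA
Hspd1 HSE (chr9:64084267-64084279): TTCCGGAAGGTTC
Hspd1 HSE (chr9:64084262-64084274): GAAGGTTCTAGAA
Hspa8 HSE (chr8:50080301-50080313): GAAAGTTCCAGAA
Hspa8 HSE (chr8:50080459-50080471): TTCTGGAAGGTTC

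Further genes of these pathways were counted in lists chosen beside the 39, and are set against the same shares of all transcripts (1.44% higher and 1.15% lower in OC vs. LC, 1.07% and 1.04% in OE vs. LE). Of 49 other ER folding and degradation genes, 0 rose and 1 fell (2.04%) in OC vs. LC and 1 rose and 1 fell in OE vs. LE. The 1 that fell in both was Pdia5, a further disulfide isomerase, with −1.27 (−1.69 to −0.86, adjusted p = 1.73e-04) and −0.86 (−1.27 to −0.45, adjusted p = 0.0169), and the 1 that rose in OE vs. LE was the prolyl isomerase Fkbp11 (0.78). An unadjusted p under 0.05 was reached by 15 of the 49 in OC vs. LC and 12 in OE vs. LE, against 12.8% and 12.4% of all transcripts. Over both diets 3 of the 49 rose and 5 fell, against 3.56% and 2.95% of all transcripts. Of 46 other genes of the ATF4 axis, 3 rose (6.52%) and 2 fell (4.35%) in OC vs. LC, and 14 of 46 had an unadjusted p under 0.05, against 12.8% of all transcripts. Over both diets 4 of the 46 rose and 3 fell. Those that rose in OC vs. LC were the stress-induced regulator Nupr1 (0.94), the mitochondrial folate enzyme Aldh1l2 (0.98) and Eif2ak4 (0.81), which encodes GCN2, the eIF2 alpha kinase that senses uncharged tRNA. All 3 rose in OE vs. LE too (1.29, 1.19 and 0.64), where 0 of 46 fell and 12 of 46 had an unadjusted p under 0.05 in either direction, against 12.4% of all transcripts. The 2 that fell in OC vs. LC were the aspartate aminotransferase Got1 (−1.95) and the amino acid transporter Slc38a2 (−1.21), which differed by −1.54 (adjusted p = 0.0548) and −0.30 (adjusted p = 0.63) in OE vs. LE. Of 55 other heat shock genes, Hspa4l, an HSP110 relative, rose in both comparisons (1.65 and 1.47), and the chaperonin subunit Tcp1 fell in OE vs. LE (−0.50). Fkbp11 and Tcp1 were named after their values were seen.

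Ecdysterone changed none of the 39 genes by limma at an adjusted p under 0.05, in lean rats (LE vs. LC), in obese rats (OE vs. OC) or in the difference between the genotypes, and 0% of all transcripts were called in these 3 comparisons. At an unadjusted p under 0.05 there were 0 of 39 in LE vs. LC (3.51% of all transcripts), 2 of 39 in OE vs. OC (5.7%) and 1 of 39 in the interaction (3.93%). The methods' t-test with the same adjustment also called none in LE vs. LC and OE vs. OC. The 2 genes in OE vs. OC were Edem1, with −0.62 (−1.03 to −0.20, adjusted p = 0.858), and Ppp1r15a, with 0.48 (0.07 to 0.88, adjusted p = 0.858). The gene of the interaction was Chac1, which differed by −0.43 in lean and by 0.44 in obese rats (difference 0.87, 0.05 to 1.68, adjusted p = 0.9995). In LE vs. LC, 37 of 39 intervals lay within −1 and 1, and the widest reached −1.79 for Asns, and in OE vs. OC 35 of 39 did, with limits of −1.29 for Asns and 1.02 for Chac1. A 2-fold change in either direction thus lay outside the interval of 37 and of 35 genes. How far smaller changes lay within differed by gene: 18 of 39 intervals in LE vs. LC and 12 of 39 in OE vs. OC lay within −0.5 and 0.5.

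**Figure D3:**
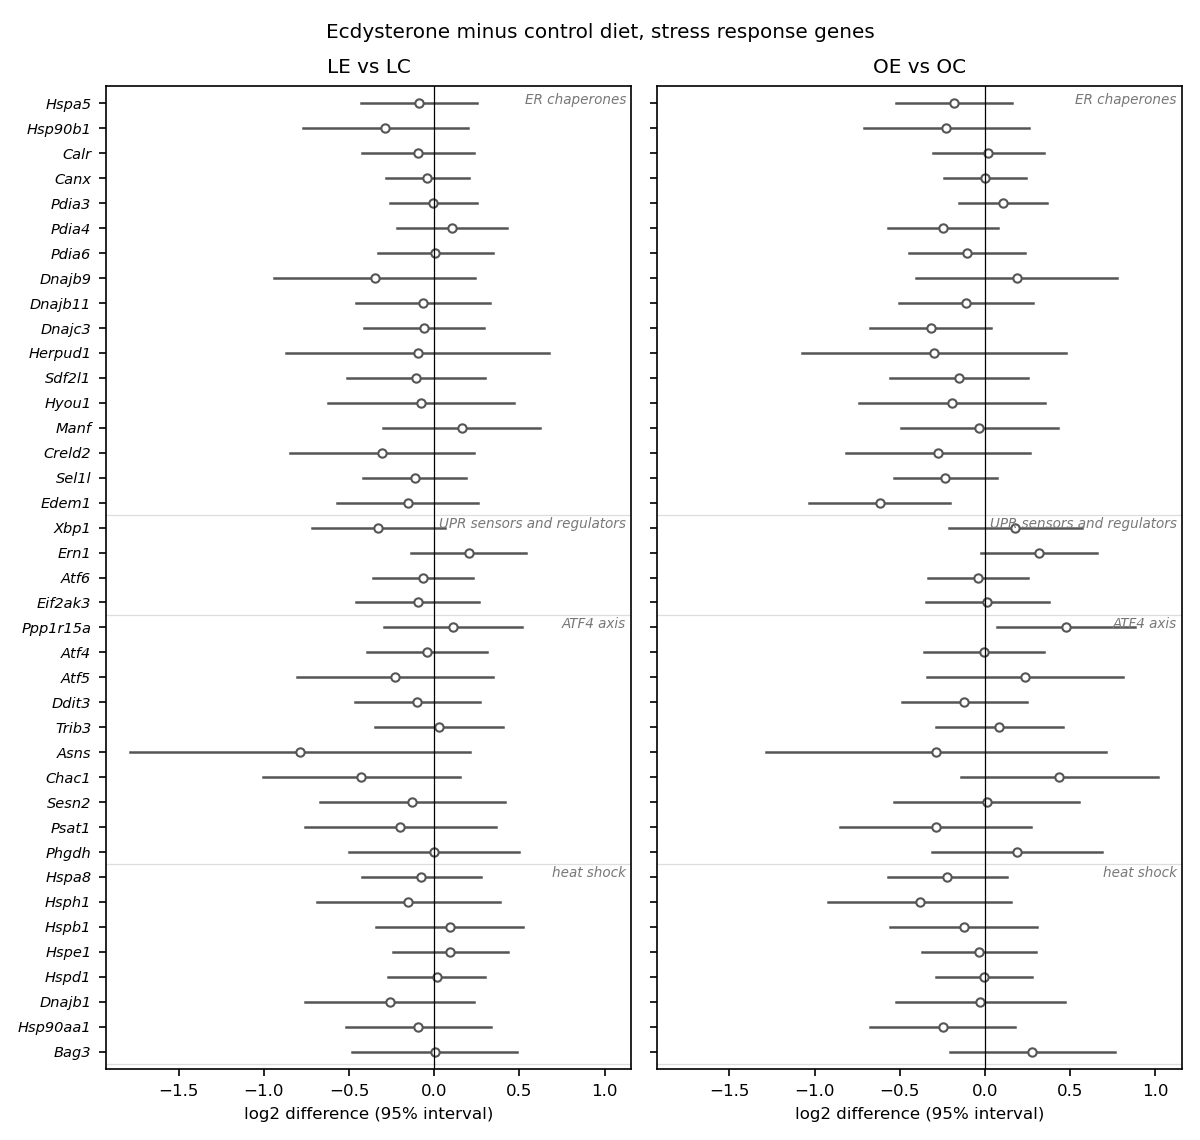
Difference in log2 signal between rats with and without ecdysterone with its 95% interval (horizontal axis) for the 39 genes, in lean rats (left, LE vs LC) and obese rats (right, OE vs OC). No point is filled, since the adjusted p was never under 0.05, and 37 of 39 intervals on the left and 35 of 39 on the right lie within −1 and 1.

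Within the groups, many ER chaperones varied together from rat to rat. Correlations were computed over 24 rats from the deviations from the group means, for all 741 pairs of the 39 genes, with 100000 permutations of the rats within their groups. The mean pairwise r was 0.33 among the 17 ER chaperones, 0.15 among the heat shock genes, 0.08 among the genes of the ATF4 axis and 0.00031 among all transcripts. After adjustment over the 741 pairs, 26 positive pairs and 1 negative pair passed, and 20 of the positive ones were among the 136 pairs of ER chaperones, of which 113 had an r above 0. The strongest was Pdia6 with Dnajc3 (r = 0.86, rho = 0.87, permutation p = 1e-05 for both, the smallest the permutations can give, adjusted p = 0.00371 and 0.00741; r = 0.81 without the 2 rats farthest from the median of Pdia6). Asns with Psat1 was the only pair within the ATF4 axis to pass (r = 0.81, rho = 0.68, permutation p = 7e-05 and 8.9e-04, adjusted p = 0.00741 and 0.0347; r = 0.62 without 2 rats). Asns also varied with Atf6 (r = 0.81, rho = 0.78, permutation p = 1e-05 and 5e-05, adjusted p = 0.00371 and 0.0115; r = 0.74 without 2 rats). The negative pair was Hspe1 with Bag3 (r = −0.66, rho = −0.74, permutation p = 6.5e-04 and 1.3e-04, adjusted p = 0.0209 and 0.0115; r = −0.74 without 2 rats). Single rats stood out for the ER chaperones as a whole: LE rat 11 was the highest of its group for 14 of the 17 genes, OE rat 20 for 13 and OC rat 18 for 11, while LC rat 1 was the lowest of its group for 9 and LE rat 7 for 8. Herpud1 and Manf had a mean r of −0.07 and −0.10 with the other ER chaperones. For Herpud1 the single values ran from −0.40 with Manf and −0.34 with Pdia6 to 0.39 with Dnajb11 and 0.72 with Dnajb9, the last of which passed (rho = 0.72, permutation p = 5.8e-04 and 6.8e-04, adjusted p = 0.0205 and 0.0296; r = 0.74 without 2 rats).

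**Figure D4:**
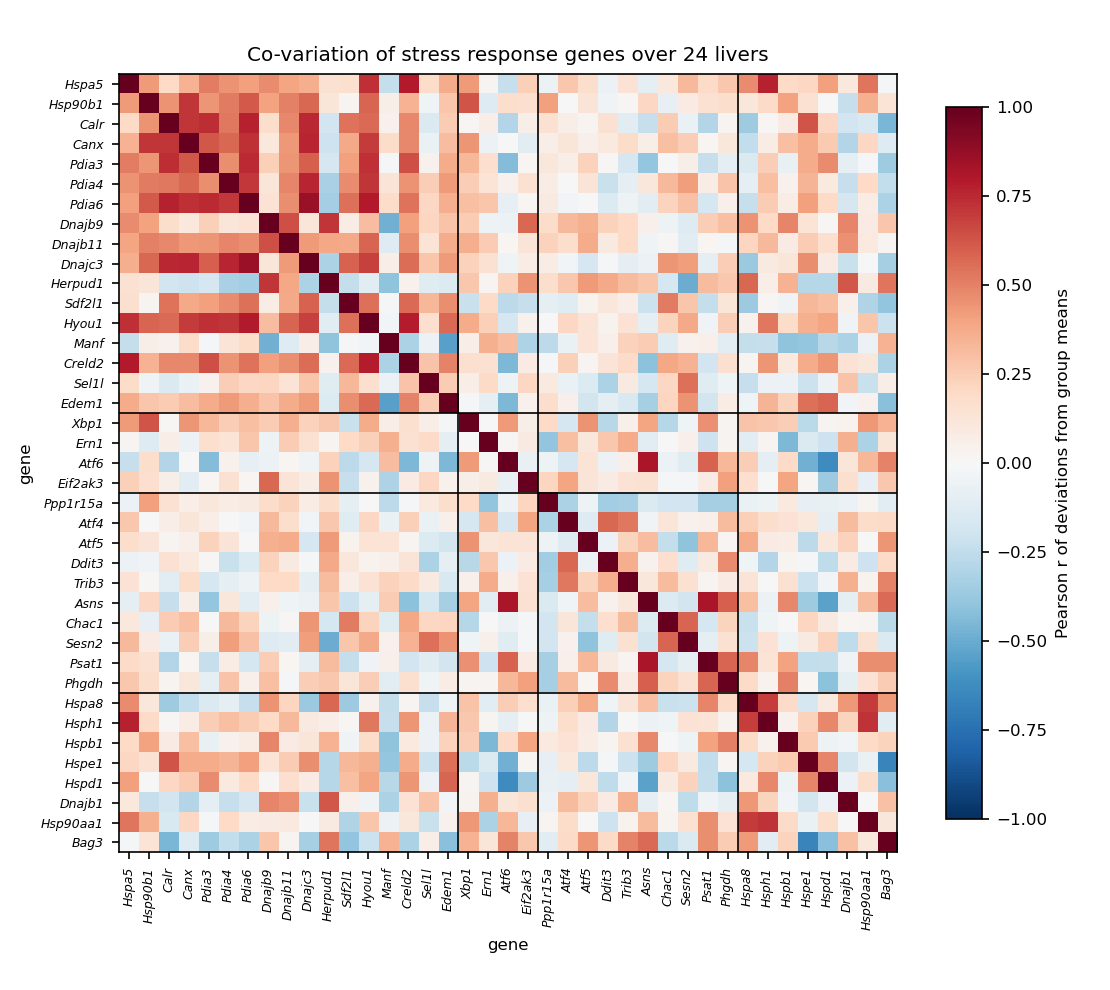
Pearson correlation of the deviations from group means over 24 livers (colour, from −1 in blue to 1 in red) for every pair of the 39 genes, with black lines between the 4 kinds of gene. The block of ER chaperones at the top left is the reddest, with a mean pairwise r of 0.33, and the row of Herpud1 within it is mostly pale or blue, with a red cell at Dnajb9 (r = 0.72).

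The spread within the groups was also set against the liver clock. The mean signal of 6 clock output genes (Dbp, Tef, Nr1d1, Nr1d2, Ciart and Per3), used as a clock output score, reached from 6.52 up to 11.0 in LC, from 6.63 up to 10.31 in LE, from 8.43 up to 10.48 in OC and from 8.77 up to 10.92 in OE. The 4 rats with a score under 7 were all lean (LC rats 1 and 2, LE rats 11 and 12), LE rat 11 being the one highest for most ER chaperones. In a limma fit of all transcripts with 1 mean per group and a slope on this score, 1 of 39 genes rose with it and 1 fell, against 0.682% and 0.582% of all transcripts. The gene that rose was Herpud1, a membrane protein of ER-associated degradation. Its lowest, median and highest signals were 11.38, 12.86 and 14.01 in LC, 12.02, 12.76 and 13.48 in LE, 13.02, 13.33 and 14.20 in OC and 12.46, 13.01 and 14.29 in OE, and its within-group SD of 0.75 was larger than that of 99.0% of all transcripts. Its slope was 0.45 per unit of the score (SE 0.065, adjusted p = 1.17e-04), with 0.42 in lean and 0.57 in obese rats. Between the genotypes Herpud1 differed by 0.66 (−0.11 to 1.43) in OC vs. LC and by 0.46 (−0.32 to 1.23) in OE vs. LE and did not pass. Sesn2 fell with the score by 0.24 per unit (SE 0.060, adjusted p = 0.0399), with −0.24 in both lean and obese rats. Dnajb1 had a slope of 0.21 (adjusted p = 0.059), which was 0.28 in lean and −0.06 in obese rats, and Dnajc3 one of −0.12 (adjusted p = 0.282).

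**Figure D5:**
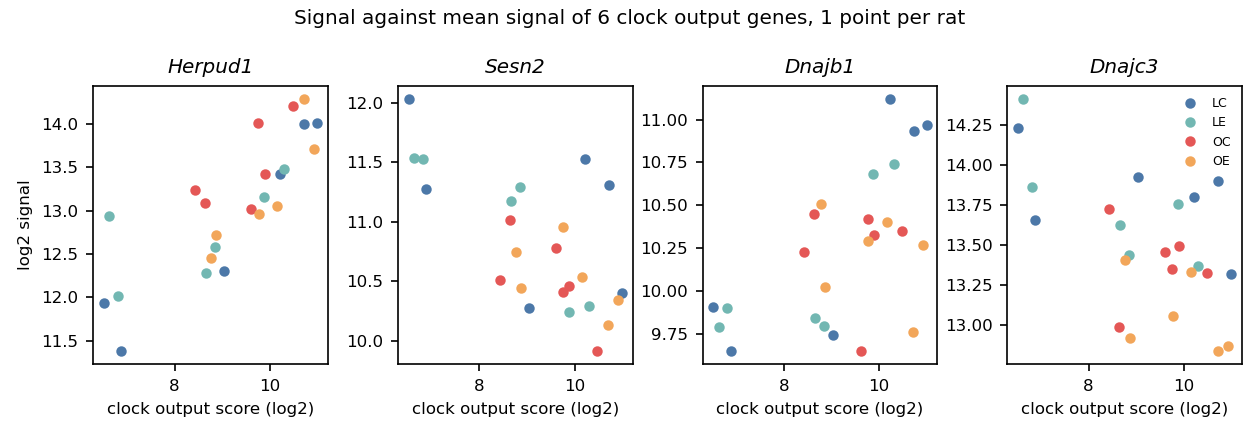
Log2 signal of 4 genes (vertical axis, a different range in each panel) against the clock output score, the mean log2 signal of 6 clock output genes (horizontal axis), 1 point per rat, coloured by group. Herpud1 climbs with the score by 0.45 per unit, Sesn2 declines with a slope of −0.24, and the 4 lean rats with a score under 7 stand apart on the left.

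With the score as a covariate the genotype comparison on the control diet had 5 of 39 genes called, among them the same 4, and that over both diets 10, all among the 11. On the ecdysterone diet 1 of the 5 remained, Psat1. Leaving out the 4 rats with a score under 7, chosen after the data were seen, gave 5 genes in OC vs. LC, 8 over both diets and 2 in OE vs. LE, Psat1 and Atf5. The shares of all transcripts called in these fits are not given here. The difference of Xbp1 in OE vs. LE was −0.77 with the covariate (adjusted p = 0.0527) and −0.74 without those rats (adjusted p = 0.0823), and that of Dnajc3 −0.52 (adjusted p = 0.139) and −0.48 (adjusted p = 0.25).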

How the data were processed

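RNA from the liver of 24 rats was hybridised to Clariom S arrays, 1 per rat. The authors deposited log2 signals of 23188 probe sets, which per the submitters' processing notes came from SST-RMA, run on all arrays together with the software Affymetrix Expression Console 1.4; the genome build is not given in the sources used here. A second deposited table differed by at most 0.005 and served as an alternative. The authors' own group means, differences, fold changes and p-values in the result table were not used. A linear model of 4 group means was fitted with limma 3.58.1 under R 4.3.3, with 20 residual and 8.39 prior degrees of freedom and p-values adjusted by Benjamini and Hochberg, and the scripts were tested on simulated data. Where a gene had several probe sets, the brightest was used. The genes and lists were chosen with earlier results of these data known. Members called in OC vs. LC or OE vs. LE were described in full, the others by differences or counts, and of further lists at most 5 genes per direction were named. The slope on the clock output score and the fits without the 4 lean rats of low score were chosen after the data were seen. Alternatives were the methods' t-test, limma on the 2 groups alone, trended robust variances, array weights, median centring, quantile normalisation, filters on low signals, the mean of all probe sets, the second table, a fold change over 1.3 with unadjusted p, the clock output score as a covariate and leaving out each rat. Promoter windows came from RefSeq (GRCr8).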

Additional observations from a re-analysis of the deposited data

Results flagged for a closer look

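In 9 of 156 sets of 6 rats (39 genes in 4 groups, 5.77%), the highest or lowest rat lay farther from its neighbour than Dixon's critical value for 6 samples allows; chance alone gives about 1 in 20. LE rat 11 was the highest of LE for Hspa5 (17.57, next 16.95) and for Hsp90b1 (15.89, next 14.85). OE rat 19 was the lowest of OE for Hsp90b1 (13.26, next 14.10) and Canx (15.98, next 16.25). In OC, rat 18 was low for Eif2ak3 (8.67, next 9.34), rat 16 for Trib3 (5.90, next 6.25) and rat 13 for Dnajb1 (9.65, next 10.23). OE rat 23 was high for Phgdh (6.68, next 5.55), and LE rat 12 was low for Hsp90aa1 (14.60, next 15.13).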

How the results depend on the processing

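No difference of a called gene changed sign under any alternative. The number of genes called in OC vs. LC, 4, became 2 with the methods' t-test (Xbp1 and Psat1) and 15 with a fold change over 1.3 and an unadjusted p under 0.05, and was 3 to 5 when 1 rat was left out. The number in OE vs. LE, 5, became 1 with the methods' t-test (Atf5), 3 with limma on the 2 groups alone, 11 with the fold change rule, 1 with the clock output score as a covariate and 2 without the 4 lean rats of low score, an alternative chosen after the data were seen. It was 1 (without LE rat 11) to 6 (without LE rat 10) when 1 rat was left out, and 2 or 3 without LE rats 8, 9 or 12 or OE rats 19, 20, 21 or 24. Over both diets 11 genes were called, 8 to 16 under the alternatives and 9 to 13 without 1 rat. The fold change rule requires an unadjusted p under 0.05. Of all transcripts, 12.8% reached that in OC vs. LC, 12.4% in OE vs. LE and 17.8% over both diets. The shares of all transcripts called under the other alternatives are not given here, so those counts are not set against a background. For ecdysterone, the fold change rule gave 2 genes in OE vs. OC and 1 in the interaction, and every other alternative gave 0. The methods' t-test and the fit of 2 groups were not run over both diets or for the interaction. Median centring and quantile normalisation moved the median difference of all transcripts in OC vs. LC by −0.0099 and 0.00047. No paired analysis was possible because the rats of different groups share no replicate number. Signals near background limit Chac1, Ppp1r15a, Hspb1 and Phgdh, Psat1 in lean rats and Asns in LE rat 11.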
